A study of Mus musculus with 30 samples.

Results

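Marker genes of the pyramidal neurons of hippocampal field CA1, 5 in number, were followed in mice through object location memory training: Wfs1, Fibcd1, Pou3f1, Mpped1 and Man1a. They were taken by symbol and are 5 of the 24883 rows of the expression table. All 5 were found once and passed the expression filter, a mean of at least 1 FPKM (fragments scaled to transcript length and to the mapped fragments of the library) over 30 libraries, which 13184 rows passed.

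The 30 libraries came from adult male C57BL/6J mice that were wild type in the labels, 1 mouse per library and 6 mice in each of 5 conditions. VEH-HC mice received vehicle, the in vivo transfection reagent without DNA, and were handled in the home cage only. VEH-T10 and VEH-T3 mice received vehicle and trained in the object location task for 10 min, a threshold period, or 3 min, a subthreshold period. Y397F-T10 mice received a plasmid for CREST with the mutation Y397F, a tyrosine changed to phenylalanine, which cannot be phosphorylated, and trained for 10 min. Y397D-T3 mice received CREST with aspartate in its place, called a mimic of phosphorylation in the labels, and trained for 3 min. The paper could not detect phosphorylation of Y397 and treats it as speculation. CREST, encoded by Ss18l1, is a subunit of the neuronal BAF chromatin remodelling complex. The plasmids were infused bilaterally 3 days before training under a mini CaMK2 promoter, which favours excitatory neurons, and tissue was taken 1 h after training ended. No condition received a plasmid for unchanged CREST, so the protein's excess and its mutation cannot be told apart. Nor can plasmid and training period in a comparison of Y397D-T3 or Y397F-T10 with VEH-HC. Mutation and training period also change together between the Y397D effect after 3 min and the Y397F effect after 10 min.

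Pyramidal neurons of CA1 carry the main output of the hippocampus to the subiculum and cortex, and dorsal CA1 is needed for memory of object location. Wfs1 encodes wolframin, a membrane protein of the endoplasmic reticulum that bears on calcium and on the unfolded protein response. Fibcd1 encodes a cell surface receptor that binds acetylated sugars. Pou3f1 encodes a POU transcription factor, also called Oct6, which is also known from myelinating glia. Mpped1 encodes a protein with a metallophosphoesterase domain. Man1a encodes a Golgi alpha-mannosidase that trims mannose from N-linked glycans, a step that many cell types carry out.

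In GENCODE M21 on GRCm38, the sequence release behind the mm10 name, Wfs1 lies on the minus strand at chr5:36966104-36989205, Fibcd1 on the minus strand at chr2:31813290-31846005 and Man1a on the minus strand at chr10:53904785-54076609. Pou3f1 lies on the plus strand at chr4:124656807-124660655 and Mpped1 on the plus strand at chr15:83779467-83858494. Pou3f1 has 1 exon, and its longest transcript, at 63.9% GC, was richer in GC than 99.3% of the tested rows with a length and GC value. Man1a, at 45.4% GC, was richer than 26.3% of them.

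Fibcd1 and Mpped1 moved together from mouse to mouse, as described further on, so the stretches just before their RefSeq starts are shown, 5′ to 3′ on the strand of the gene, without bases in annotated exons. Both come from RefSeq on GRCm38.p6, with matches to the GC box GGGCGG on either strand in capitals. The Fibcd1 stretch is chr2:31846006-31846255, minus strand, and the Mpped1 stretch is chr15:83779773-83779981, plus strand, within the GENCODE span of the gene.
Fibcd1: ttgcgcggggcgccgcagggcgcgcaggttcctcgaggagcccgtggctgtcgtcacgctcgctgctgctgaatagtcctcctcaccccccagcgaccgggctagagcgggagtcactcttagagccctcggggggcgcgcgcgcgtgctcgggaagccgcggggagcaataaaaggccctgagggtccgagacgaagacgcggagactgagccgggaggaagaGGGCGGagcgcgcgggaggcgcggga
Mpped1: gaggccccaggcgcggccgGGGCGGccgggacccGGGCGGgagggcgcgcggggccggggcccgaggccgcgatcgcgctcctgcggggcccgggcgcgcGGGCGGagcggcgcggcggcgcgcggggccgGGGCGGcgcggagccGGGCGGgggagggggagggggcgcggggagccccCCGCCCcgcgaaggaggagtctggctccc
The 250 bases before the Fibcd1 start held 34 CpG and 71.6% GC, with 1 GC box. The 250 bases before this Mpped1 start, the last 41 of which lie in an annotated exon and are not shown, held 47 CpG and 88.8% GC, with 7 GC boxes, 6 of them in the stretch shown. Over 32851 RefSeq windows of the same length the median was 6 CpG and 52.4% GC, and 32.7% of windows held a GC box. Mpped1 has another RefSeq start, with 2 CpG and no GC box in the window before it, and 4 of the 5 genes had a window. Windows rich in CpG were not particular to this pair. The Man1a window held 31 CpG and 72.4% GC, with 2 GC boxes. The Wfs1 window, 223 of its bases in annotated exons, held 23 CpG and 69.6% GC, with 4 GC boxes.

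The tissue held the neurons that the genes mark together with others. Slc17a7, the vesicular glutamate transporter of excitatory neurons, had a median of 584.1 FPKM. C1ql2, a gene of dentate gyrus granule cells, had a median of 75.6 FPKM and Prox1, the transcription factor of the same cells, 12.1 FPKM, so transcripts of granule cells were in the libraries of this dissection, a hemisphere of dorsal hippocampus. No gene of the 21 lists that were read was at 0 in every library. In such bulk tissue fewer cells of a type and less RNA per cell cannot be told apart. There were 3 libraries that stood apart, VEH-T10 mouse 1, VEH-T3 mouse 1 and Y397F-T10 mouse 1. They were the lowest 3 of 30 for the summed FPKM of the astrocyte, oligodendrocyte, microglia and endothelium lists. Their astrocyte sums were 344 to 371 FPKM against 453 to 1537 in the other 27 libraries. Lists of regions differed too, with ventral CA1 sums of 57.2 to 80.9 FPKM against 17.5 to 71.5. Dentate gyrus sums were 47.6 to 75.6 FPKM against 57.0 to 155.9, and deep cortex sums 53.5 to 71.0 against 34.1 to 62.3. All 3 libraries carry replicate number 1 in the labels. Relative depth ran from 0.812 to 1.24 of the median library. Ss18l1, the row that would also take plasmid reads, was 11.4 to 14.05 FPKM in the plasmid mice and 10.4 to 14.7 FPKM in the vehicle mice.

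The 5 genes were expressed above most of the tissue's genes, and their order varied from mouse to mouse except for the lowest. On the FPKM scale, which is per transcript length, the mean over 30 mice was 56.1 ± 9.34 (SD, n = 30) for Mpped1, 50.5 ± 11.3 for Wfs1, 38.1 ± 5.26 for Fibcd1, 34.2 ± 4.78 for Pou3f1 and 16.4 ± 2.17 for Man1a. Mpped1 stood above 89.6% of the tested rows and Man1a above 65.0%. Man1a was the lowest of the 5 in 30 of 30 mice. Mpped1 was the highest in 19 mice and Wfs1 in 11. The order of neighbouring conditions was not resolved for any of the 5 genes. Of 20 exact 2-sided permutation tests between conditions next to each other in a gene's order of means, 0 had an unadjusted p under 0.05, and the lowest was 0.0606.

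**Figure D1:**
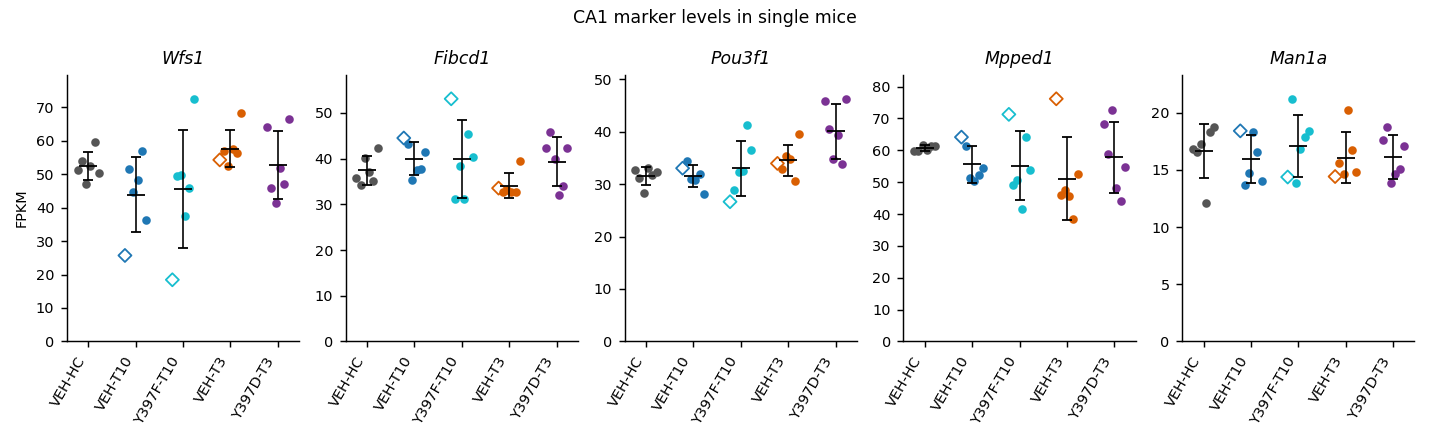
FPKM of the 5 CA1 marker genes in each of the 30 mice, by condition, with the mean and SD of 6 mice in black and the 3 libraries that stood apart as open diamonds. Pou3f1 in Y397D-T3, 33.8 to 46.3 FPKM, lies above every VEH-HC mouse, Mpped1 is tight in VEH-HC at 59.6 to 61.8 FPKM, and Wfs1 is lowest in 2 of the open diamonds.

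Of the 5 genes, only Pou3f1 passed the test in any of the 8 comparisons, and in 1 of them: it was higher in Y397D-T3 than in VEH-HC. Over the 8 comparisons the 5 genes gave 40 log2 fold changes in limma, of which 19 were positive, 5 had an unadjusted p under 0.05 and 1 had a Benjamini-Hochberg adjusted p under 0.05 over 13184 rows. Over all tested rows, 14135 of 105472 values had an unadjusted p under 0.05, a share close to that of the 5 genes. In the exact permutation tests on FPKM, 3 of 35 had an unadjusted p under 0.05. Against VEH-HC the test called 0.819% of all tested rows with VEH-T10 mice. The same share was 5.17% with VEH-T3 mice, 7.07% with Y397D-T3 mice and 1.13% with Y397F-T10 mice. It was 0% for Y397F-T10 against VEH-T10 in limma, where an unadjusted p under 0.05 was reached upward by 256 rows and downward by 242, and 0.00758% for Y397D-T3 against VEH-T3, 0.0455% for VEH-T10 against VEH-T3 and 0.0303% for the interaction, the difference between the 2 plasmid effects. The 4 comparisons with VEH-HC share the same 6 control mice.

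**Figure D2:**
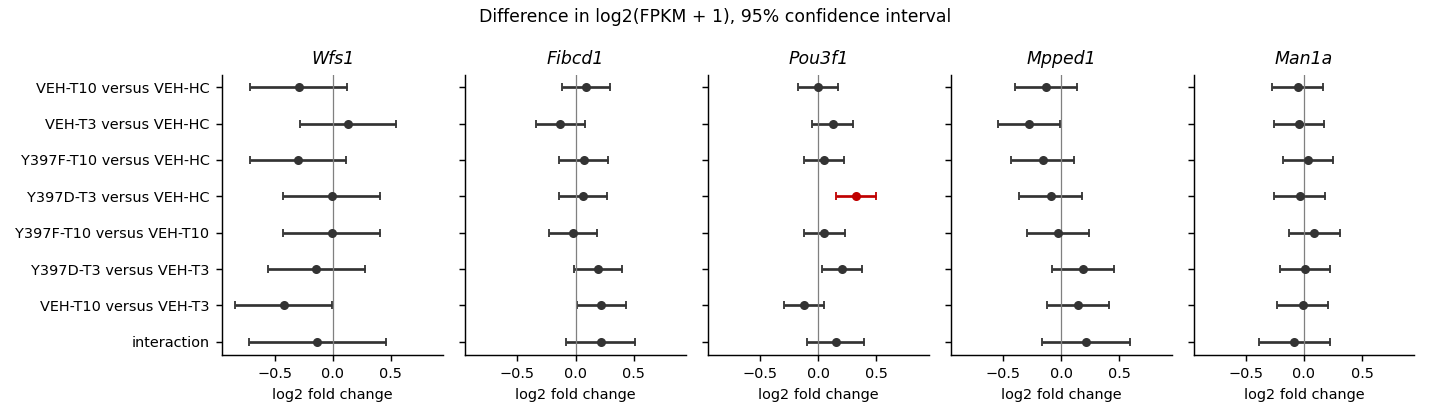
Log2 fold change of each gene on log2(FPKM + 1) with its 95% confidence interval from limma, in 7 comparisons of 2 conditions and the interaction, the Y397D effect after 3 min minus the Y397F effect after 10 min. Only Pou3f1 in Y397D-T3 versus VEH-HC, in red at 0.33, has an adjusted p under 0.05.

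Pou3f1, the POU transcription factor, was the gene with the clearest shift. In Y397D-T3 mice its lowest, median and highest FPKM were 33.8, 39.9 and 46.3, and in VEH-HC mice they were 28.4, 32.1 and 33.1. All 6 Y397D-T3 mice were above all 6 VEH-HC mice, a separation in this direction that 2.5% of the tested rows showed. The means were 40.1 ± 5.31 and 31.6 ± 1.73 FPKM (SD, n = 6). The log2 fold change was 0.33 ± 0.084 (SE, limma adjusted p = 0.0198), with a 95% interval of 0.15 to 0.50, among the 3.91% of rows that rose in this comparison. The exact 2-sided permutation p was 0.00216, the smallest that 6 mice against 6 can give. Without Y397D-T3 mouse 6, at 46.3 FPKM the highest of the 30, the log2 fold change was 0.28. The limma adjusted p was then 0.0557, so the call was lost without that library. The rows called among all 13184 fell as well, from 932 to 605. Without VEH-HC mouse 3 the limma adjusted p of Pou3f1 was 0.0472.

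The means of Pou3f1 in the other 3 conditions were below that in Y397D-T3. In VEH-T3 mice, which trained for the same 3 min, the lowest, median and highest FPKM were 30.6, 34.4 and 39.5. Of the 6 Y397D-T3 mice, 5 were above the VEH-T3 median, and the conditions overlapped. The log2 fold change of Y397D-T3 against VEH-T3 was 0.20 ± 0.084 (SE), with a 95% interval of 0.03 to 0.38 and a limma adjusted p of 0.578. VEH-T3 against VEH-HC gave 0.12, with an interval of -0.05 to 0.30. After 10 min of training the lowest, median and highest FPKM were 28.2, 31.4 and 34.4 with vehicle and 26.7, 32.5 and 41.3 with Y397F. Y397F-T10 against VEH-T10 gave a log2 fold change of 0.05, with an interval of -0.12 to 0.23. The interaction was 0.15, with an interval of -0.09 to 0.40 and a limma adjusted p of 0.731. So the Y397D effect after 3 min was not shown to differ from the Y397F effect after 10 min. With the length and GC trend of each library removed, the 0.20 against VEH-T3 was 0.10, the 0.12 of VEH-T3 against VEH-HC was 0.22 and the interaction was 0.03. Without the 3 libraries that stood apart the interaction was 0.08.

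Markers of other cells also differed between Y397D-T3 and VEH-HC. Of the ventral CA1 list, 1 of 4 genes fell, Dcn by 1.06 on the log2 scale, and the list's summed FPKM was 17.5 to 36.5 in Y397D-T3 against 46.2 to 71.5 in VEH-HC. Dcn is also a gene of meningeal fibroblasts, and which cells its fall came from was not tested. Of the thalamus list 2 of 4 genes fell, Slc17a6 by 0.95 and Tcf7l2 by 0.37, with sums of 11.9 to 24.8 against 19.4 to 30.4 FPKM. Both were low, with medians of 1.88 and 1.25 FPKM over the 30 libraries. The highest gene in those sums was Prkcd, which did not pass, with a median of 16.7 FPKM. Of the deep cortex list, 1 of the 5 genes tested fell, Ctgf by 0.74, with sums of 41.8 to 57.0 against 49.99 to 62.3 FPKM. Ctgf was low too, with a median of 2.40 FPKM over the 30 libraries. The neuronal genes Rbfox3 and Camk2a rose by 0.29 and 0.24, each 1 of the 3 genes of its list. Of all 13184 tested rows, 515 rose and 417 fell in this comparison. The choroid plexus list was 14.1 to 2846 FPKM in Y397D-T3 and 919.5 to 5615 FPKM in VEH-HC, with 0 of 6 genes past the adjusted threshold in limma and 6 of 6 lower at an unadjusted p under 0.05. The falls were not particular to Y397D-T3. Over the 4 comparisons with VEH-HC, 0 of 16 ventral CA1, 0 of 16 thalamus and 0 of 24 choroid plexus values were positive. For deep cortex it was 2 of 20, for GABAergic interneurons 1 of 24 and for subiculum 1 of 8. The CA3 list had 11 of 12 positive and the list of glutamatergic neurons 9 of 12. For all tested rows it was 20558 of 52736. The part of these markers in the Pou3f1 result was not tested.

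Wfs1, the gene of wolframin, varied most of the 5. In home cage mice its lowest, median and highest FPKM were 46.9, 51.9 and 59.5. After 10 min of training they were 25.7, 46.5 and 56.9 with vehicle but 18.4, 47.7 and 72.6 with Y397F. After 3 min they were 52.5, 56.6 and 68.2 with vehicle but 41.4, 49.3 and 66.4 with Y397D. All conditions overlapped with VEH-HC, and both of the lowest mice, at 18.4 and 25.7 FPKM, belong to the libraries that stood apart. The difference with the lowest unadjusted p was VEH-T10 against VEH-T3, at -0.42 ± 0.20 (SE) on the log2 scale with a 95% interval of -0.84 to -0.01 and a limma adjusted p of 0.613. Its exact permutation p was 0.0108, unadjusted over 35 such tests. Against VEH-HC the log2 fold change was -0.01 for Y397D-T3, 0.13 for mice given vehicle and 3 min of training, -0.29 for those given vehicle and 10 min and -0.30 for Y397F-T10, each with an interval that held 0. Without VEH-T10 mouse 1 the -0.29 was -0.15 and the -0.42 between the training periods was -0.28. Without Y397F-T10 mouse 1 the -0.30 was -0.07, and without Y397F-T10 mouse 6 it was -0.45.

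Fibcd1, the acetyl group receptor, had the opposite sign from Wfs1 between the training periods, and also missed the adjusted threshold. With vehicle, its lowest, median and highest FPKM were 35.3, 39.6 and 44.5 after 10 min and 32.7, 33.0 and 39.5 after 3 min. Among VEH-T10 mice, 6 of 6 were above the VEH-T3 median, but VEH-T3 mouse 6, at 39.5 FPKM, lay inside the VEH-T10 range. The log2 fold change was 0.22 ± 0.10 (SE), with a 95% interval of 0.01 to 0.43, a limma adjusted p of 0.606 and an unadjusted exact permutation p of 0.0130. In VEH-HC the lowest, median and highest values were 34.2, 36.4 and 42.3 FPKM. They were 31.2, 39.3 and 53.1 FPKM in Y397F-T10 and 32.0, 41.0 and 45.8 FPKM in Y397D-T3. Y397D-T3 against VEH-T3 gave 0.19, with an interval of -0.01 to 0.40.

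Mpped1, the metallophosphoesterase gene, was nearly constant in home cage mice and had a wider range in each trained condition. In VEH-HC its lowest, median and highest FPKM were 59.6, 60.8 and 61.8. After 10 min of training they were 50.4, 53.2 and 64.1 with vehicle but 41.6, 52.3 and 71.3 with Y397F. After 3 min they were 38.6, 46.7 and 76.2 with vehicle but 44.1, 56.9 and 72.6 with Y397D. In VEH-T3, 5 of 6 mice were below the lowest VEH-HC mouse, at 38.6 to 52.6 FPKM, and mouse 1, a library that stood apart, was above them all at 76.2. The log2 fold change of VEH-T3 against VEH-HC was -0.28 ± 0.13 (SE), with a limma adjusted p of 0.212. Without VEH-T3 mouse 1 it was -0.40 with a limma adjusted p of 0.0301. Without all 3 libraries that stood apart it was -0.40 with a limma adjusted p of 0.0138. So 1 library decided whether Mpped1 passed, but the rows called among all 13184 also rose, from 681 to 1289 and 1648.

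Man1a, the Golgi mannosidase, showed no shift past the spread between mice. Its condition means ran from 16.0 ± 2.11 (SD, n = 6) FPKM in VEH-T10 to 17.1 ± 2.73 in Y397F-T10, and single mice from 12.1 to 21.2. The log2 fold change furthest from 0 was 0.09, for Y397F-T10 against VEH-T10, with a 95% interval of -0.13 to 0.31.

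The spread between mice of a condition differed by gene and condition. The coefficient of variation (CV, SD as a percent of the mean) of Mpped1 was 1.56% in VEH-HC, where 0.93% of the 1290 tested rows of similar mean, within 1.5 times, had a lower one. After training it was widest in VEH-T3, at 25.6%, followed by 19.6% in Y397F-T10, 19.2% in Y397D-T3 and 10.4% in VEH-T10. The medians of the rows of similar mean were 9.48%, 8.10%, 7.48% and 7.20% in the same order, and 6.03% in VEH-HC. The CV of Wfs1 was 7.97% in home cage mice, where rows of similar mean had a median of 6.0%. It was 25.7% in VEH-T10, against a median of 7.17%, and 38.8% in Y397F-T10, against 8.19%. Without the 3 libraries that stood apart the CV of Wfs1 was 25.5% for Y397F-T10 but 16.2% for VEH-T10, and that of Mpped1 was 10.9% in VEH-T3. Man1a kept a CV of 11.9% to 16.0% in the 5 conditions. Some cell lists were also tight in VEH-HC. The SD of the mean log2 level of the dentate gyrus list was 0.067 there and 0.252 to 0.555 in the trained conditions. For oligodendrocytes it was 0.085 against 0.327 to 0.506, but for upper cortex 0.0779 against 0.0624 to 0.0795. No test was made of these differences in spread, and the part of these lists in that of Mpped1 was not tested.

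**Figure D3:**
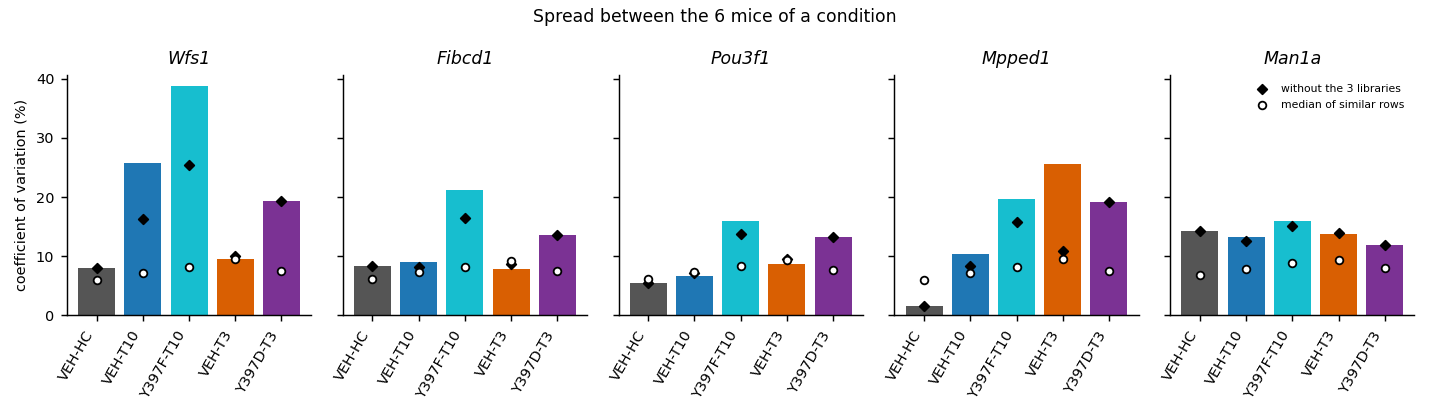
Coefficient of variation of FPKM between the 6 mice of each condition as bars, without the 3 libraries that stood apart as diamonds, and the median over tested rows of similar mean as circles. The Mpped1 bar is 1.56% in VEH-HC and 25.6% in VEH-T3, and the Wfs1 bar is 38.8% in Y397F-T10.

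Across single libraries the 5 genes did not move as a block. Of the 10 pairs of genes, 2 had a correlation with an adjusted permutation p under 0.05 over the family of 15 relations, which adds each gene against the library median, that is the median log2(FPKM + 1) of the tested rows. Fibcd1 and Mpped1 were high and low in the same mice over all 30, with Pearson r = 0.63 (permutation p = 0.00023, adjusted p = 0.0030) and Spearman rho = 0.67 (permutation p = 8e-05, adjusted p = 0.0012). With condition means subtracted r was 0.65, without the 2 libraries furthest from the Fibcd1 median it was 0.59, and without the 3 libraries that stood apart it was 0.70. The stretches upstream of both genes are the sequences printed with the gene positions, and a link between them and this correlation was not tested.

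Wfs1 and Pou3f1 had r = 0.49 (permutation p = 0.00709, adjusted p = 0.0266) and rho = 0.41 (permutation p = 0.0273, adjusted p = 0.0818). With condition means subtracted r was 0.54, and without the 2 libraries furthest from the Wfs1 median it was 0.45 with an adjusted permutation p of 0.0688. Wfs1 and Fibcd1 had r = -0.42 (permutation p = 0.0182, adjusted p = 0.0546) and rho = -0.25 (permutation p = 0.190, adjusted p = 0.407). Without the 2 libraries furthest from the Wfs1 median, r of Wfs1 and Fibcd1 was 0.03, so that relation rested on those libraries. The other pairs had r between -0.26 and 0.16, with adjusted permutation p from 0.325 to 0.828.

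Fibcd1 and Mpped1 were also lower in libraries with a higher median, with r = -0.60 (permutation p = 0.0004, adjusted p = 0.0030) and rho = -0.64 (permutation p = 2e-04, adjusted p = 0.0015) for Fibcd1. For Mpped1 r was -0.59 (permutation p = 0.00068, adjusted p = 0.0034) and rho was -0.56 (permutation p = 0.00189, adjusted p = 0.00945). Library medians ran from 3.3 to 3.5 on the log2 scale. Without the 2 libraries furthest from each gene's median, r was -0.46 for Fibcd1 and -0.44 for Mpped1, both with an adjusted permutation p of 0.0688. Without the 3 libraries that stood apart, r was -0.69 for Fibcd1 (adjusted permutation p = 0.00082) and -0.41 for Mpped1 (adjusted permutation p = 0.0966). After each library was centred on its median, r of Fibcd1 and Mpped1 was 0.71. Centring subtracts the same median from both genes, and both ran against it. This setting therefore cannot show whether the relation of the pair holds apart from the library median. No batch is given per library, so no value within batches could be had.

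**Figure D4:**
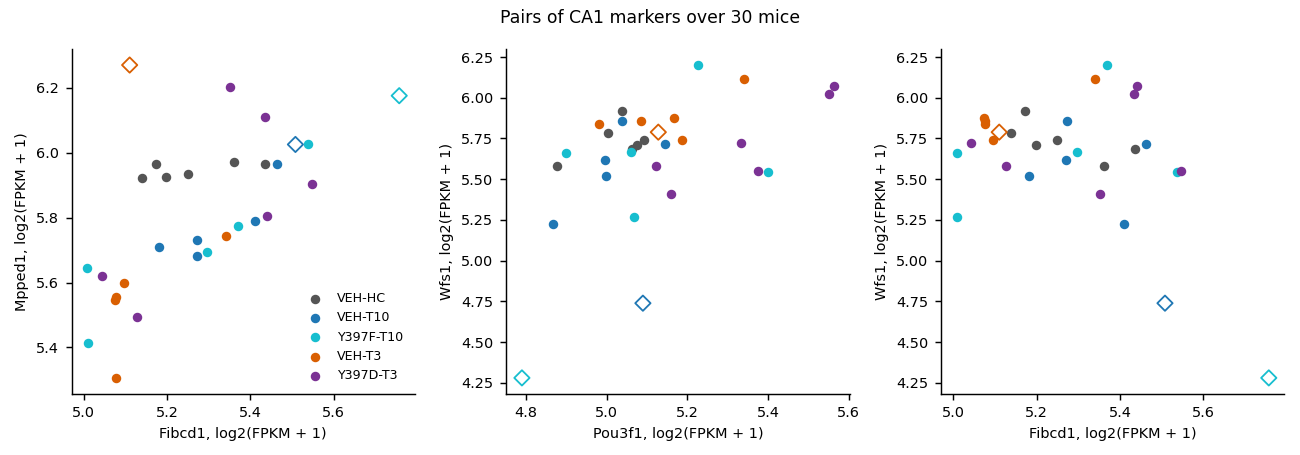
Log2(FPKM + 1) of 3 pairs of genes in the 30 mice, coloured by condition, with the 3 libraries that stood apart as open diamonds. Fibcd1 and Mpped1 rise together (r = 0.63), Pou3f1 and Wfs1 do so less tightly (r = 0.49), and in the right panel 2 open diamonds at low Wfs1 carry the slope of Wfs1 against Fibcd1.

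The genes most like each marker differed between the 5, by Pearson r over 30 libraries with condition means subtracted, given as a description. The nearest to Wfs1 was Scn4b, a sodium channel beta subunit, at r = 0.85, followed by Rhobtb1 at 0.81 and Pou3f3, a POU transcription factor related to Pou3f1, at 0.80. The nearest to Fibcd1 were Slc24a3, a sodium, potassium and calcium exchanger, at 0.83, 6330403A02Rik at 0.83 and Gdap1 at 0.80. The nearest to Pou3f1 were Itpka, an inositol trisphosphate kinase of dendritic spines, at 0.75, Mesdc1 at 0.73 and Nudt3 at 0.73.

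The nearest to Mpped1 were Dnajc27 at 0.90, 3110035E14Rik at 0.90 and Nov, a secreted protein also read here as a CA1 gene, at 0.89. The nearest to Man1a were Pls1, an actin bundling protein, at 0.80, Cc2d2a at 0.78 and Dock5 at 0.77. Mpped1 had 364 rows with r over 0.7 and 643 with r under -0.7, Wfs1 81 and 77, and Pou3f1 9 and 0. Without the 3 libraries that stood apart, the r of Nov with Mpped1 was 0.82, in place 3, and that of Scn4b with Wfs1 was 0.74, in place 1. Others lost their place: Rhobtb1 had an r of 0.64 with Wfs1, in place 18, and Mesdc1 and Nudt3 had 0.69 and 0.70 with Pou3f1, in places 23 and 22.

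Another 10 genes known in CA1 pyramidal neurons were tested beside the 5. Against VEH-HC, 3 of 10 rose in Y397D-T3, Zbtb20, a zinc finger factor of developing CA1, by 0.84 on the log2 scale, Hpca, the calcium sensor hippocalcin, by 0.41 and Neurod6, a neuronal bHLH factor, by 0.33. In VEH-T3, 2 rose, Zbtb20 by 0.70 and Spink8 by 0.49, and 1 fell, Nov by 0.84. In Y397F-T10, 1 rose, Zbtb20 by 0.69, and in VEH-T10 0 of 10 passed in limma, where an unadjusted p under 0.05 was reached upward by 6 genes and downward by 1. Over all 13184 rows it was reached upward by 602 and downward by 1362. At the adjusted threshold, 515 of the 13184 rows rose in Y397D-T3, 294 rose and 387 fell in VEH-T3, 62 rose in Y397F-T10 and 42 in VEH-T10. In the comparisons without VEH-HC, 0 of 40 values passed in limma and 1 had an unadjusted p under 0.05, beside 3807 of 52736 over all tested rows.

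The levels behind these calls were unequal. Zbtb20 was low, at 1.49 ± 0.522 (SD, n = 6) FPKM in VEH-HC and 3.43 ± 0.93 in Y397D-T3, so the pseudocount of 1 makes its fold change smaller than that of the FPKM. Neurod6 was 80.4 ± 6.14 FPKM in VEH-HC and 102 ± 14.9 in Y397D-T3. The median log2 fold change of the 10 genes in Y397D-T3 against VEH-HC was 0.31, beside -0.01 for the 5 markers and -0.03 for all tested rows. In VEH-T10 against VEH-HC the same medians were 0.31, -0.05 and -0.03. A rise of this size was not particular to the 10 genes. The median of the 3 CA3 genes was 0.34 in Y397D-T3 and 0.31 in VEH-T10 against VEH-HC. That of the 5 dentate gyrus genes was 0.22 and 0.01, and that of the 4 CA2 genes tested 0.05 and -0.15.

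**Figure D5:**
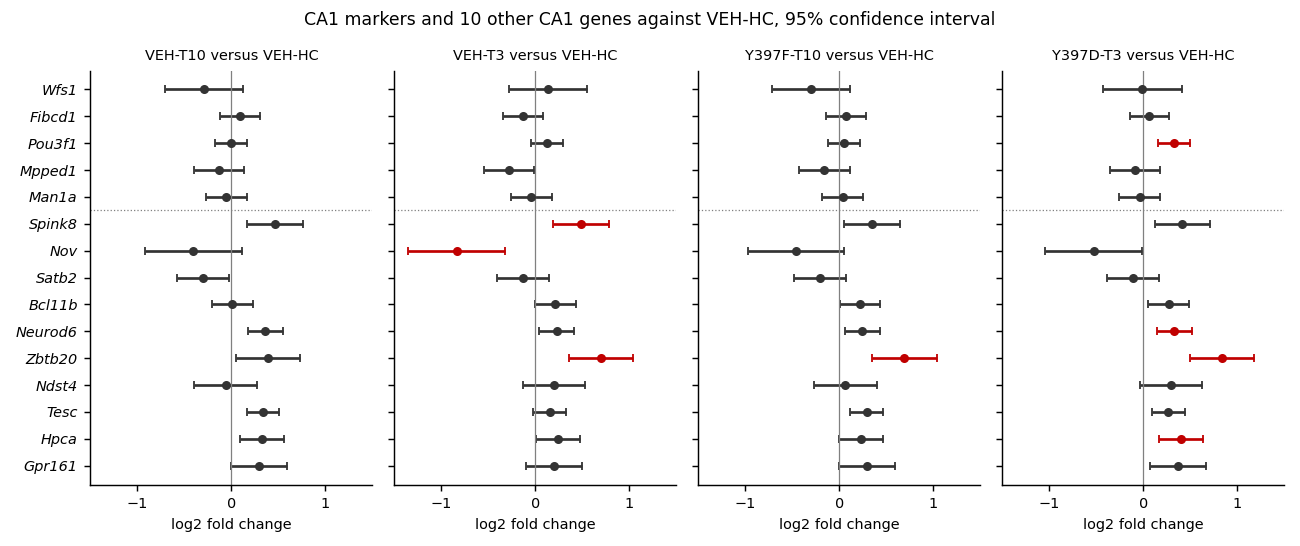
Log2 fold change on log2(FPKM + 1) with its 95% confidence interval for the 5 markers, above the dotted line, and 10 other CA1 genes in the 4 comparisons with VEH-HC, with limma adjusted p under 0.05 in red. Of the 5 markers Pou3f1 is red in 1 panel, and Zbtb20 is red in 3 panels.

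Genes that share a family or a pathway with the markers were read last. Of Man1a2, Man1c1, Pou3f2, Pou3f3 and Mpped2, the relatives of the markers, 0 of 5 passed in any of the 8 comparisons in limma, with 3 of 40 values at an unadjusted p under 0.05, beside 14135 of 105472 over all tested rows. Of 8 genes of the response to endoplasmic reticulum stress, the pathway that wolframin bears on, 0 passed in limma, with 9 of 64 values at an unadjusted p under 0.05, close to that share. Of 7 other genes of N-glycan trimming and its next step, the pathway of Man1a, which include Man1a2 and Man1c1, 3 fell in VEH-T3 against VEH-HC: Mogs, which removes the first glucose, by 0.22, Mgat1, which adds the first N-acetylglucosamine, by 0.22 and Man1b1, a mannosidase, by 0.18 on the log2 scale. In Y397D-T3 2 fell, Mgat1 by 0.21 and Man1b1 by 0.15, in Y397F-T10 1, Mogs by 0.22, and in VEH-T10 0, with 1 at an unadjusted p under 0.05. Of all 13184 tested rows, 387 fell in VEH-T3, 417 in Y397D-T3, 87 in Y397F-T10 and 66 in VEH-T10. Man1a itself differed from VEH-HC by -0.05 to 0.04 on the log2 scale.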

How the data were processed

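RNA from dorsal hippocampus, 1 library per mouse, was sequenced in pairs of reads. Per the labels, reads were aligned with TopHat2 2.1.1 to mm10 and Cufflinks 2.2.1 gave FPKM, the only deposited values. The authors normalised them for transcript length and mapped fragments, so counts and absolute depth are unknown, and only relative depth was estimated, from the steps between low values. Which sequencer ran each library, and whether strand was kept, are not given in the sources used here. Rows with a mean of at least 1 FPKM were tested in limma 3.58.1 (R 4.3.3) on log2(FPKM + 1), with 1 coefficient per condition, a trend and Benjamini-Hochberg adjustment over 13184 rows at 0.05, after a test on simulated data. Fold changes are on that scale and understate those of low genes. This replaced the study's Cyber-T test. Exact permutation tests and 100000 permutations for correlations were 2-sided. The markers and gene lists were chosen with earlier results of these data known. Named genes were the 5 markers, the 3 rows most like each, and at most 4 genes of a list with the lowest adjusted p under 0.05. Alternatives were another pseudocount, no filter, centring, length and GC, 2 conditions only, a replicate block, summed rows, exact tests and leaving out libraries. Libraries sharing a label number did not deviate together in every pair, so the numbers were not taken to pair mice.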

Additional observations from a re-analysis of the deposited data

Results flagged for a closer look

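A sample far from the other 5 of its condition was looked for in 25 sets of 6 values, the 5 genes in 5 conditions, by its gap to the nearest value over the range, against a critical value of 0.625. There were 4 such values, from 3 mice, and chance gives about 1 set in 20. In VEH-T3, mouse 6 was highest for Wfs1, at 68.2 FPKM, and for Fibcd1, at 39.5 FPKM, and mouse 1 was highest for Mpped1, at 76.2 FPKM. In VEH-HC, mouse 4 was lowest for Man1a, at 12.1 FPKM. No difference between the plasmid effects after 3 and 10 min passed, and no file or column was outside the comparisons.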

How the results depend on the processing

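The Pou3f1 call in Y397D-T3 against VEH-HC held under the pseudocount of 0.1, no filter, centring, removal of the length and GC trend, only the 12 libraries compared, the replicate block, summed rows and the removal of 3 libraries, chosen after seeing the data, with limma adjusted p from 0.0114 to 0.0263. With single libraries left out, the number of markers that passed ranged from 0 to 1 in Y397D-T3 against VEH-HC and from 0 to 1 in VEH-T3 against VEH-HC. It was 1 in VEH-T3 against VEH-HC without the 3 libraries that stood apart. By unadjusted exact permutation it was 2 in VEH-T10 against VEH-T3. With the replicate block, the count was 1 in Y397D-T3 against VEH-HC and 0 in the other comparisons. Same-numbered libraries had a median correlation of deviations of 0.042 (-0.496 to 0.840), against 0.0065 (-0.625 to 0.743) for libraries of different numbers. Of the 30 libraries, 8 correlated best with their own number, so the numbers were not taken to pair mice. Number 1, which the 3 libraries that stood apart carry, had pairs from -0.241 to 0.840, with a median of 0.151, and number 4 had the highest median, 0.228. Whether libraries of number 1 shared a step of handling was not tested.

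Of 15 relations, 4 passed, against 1 without the 2 extreme libraries and 2 without the 3 libraries. Correlations that turned sign were Wfs1 with Fibcd1 (0.0282 and 0.0383) and with Mpped1 (0.0323 and 0.011) under these 2 settings, Pou3f1 with Mpped1 (-0.00839) without the 2 libraries, and Fibcd1 with Man1a (0.0578) after centring. The cause was not tested.

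Log2 fold changes near 0 that did not pass also turned sign. After centring they were 0.0286 for Pou3f1 in VEH-T10 against VEH-HC, 0.0268 for Wfs1 and 0.00094 for Man1a in Y397D-T3 against VEH-HC, and 0.00017 for Man1a in VEH-T10 against VEH-T3. With the length and GC trend removed they were 0.0705 for Pou3f1 and 0.0504 for Wfs1 in the same comparisons, 0.0168 for Wfs1 in Y397F-T10 against VEH-T10 and 0.0293 for Man1a in VEH-T10 against VEH-T3. As the ratio of mean FPKM, Wfs1 was 0.00787 in Y397D-T3 against VEH-HC and 0.0541 in Y397F-T10 against VEH-T10. Without the 3 libraries, Fibcd1 was -0.0155 in Y397F-T10 against VEH-HC, Wfs1 0.0819 in Y397F-T10 against VEH-T10 and Man1a -0.0195 in Y397D-T3 against VEH-T3. With single libraries left out, values ranged, against VEH-HC, from -0.0328 to 0.0282 for Pou3f1 in VEH-T10, from -0.0155 to 0.13 for Fibcd1, -0.0159 to 0.11 for Pou3f1 and -0.0475 to 0.0896 for Man1a in Y397F-T10, and from -0.0796 to 0.054 for Wfs1 and -0.12 to 0.0049 for Man1a in Y397D-T3. In Y397F-T10 against VEH-T10 they ranged from -0.16 to 0.22 for Wfs1, -0.11 to 0.043 for Fibcd1, -0.0129 to 0.11 for Pou3f1 and -0.11 to 0.0455 for Mpped1. For Man1a they ranged from -0.0339 to 0.0728 in Y397D-T3 against VEH-T3 and from -0.0515 to 0.0541 in VEH-T10 against VEH-T3, and for Wfs1 in the interaction from -0.37 to 0.019. Absolute depth is unknown, so what depth limits was not measured.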
